A study of Mus musculus with 8 samples.

Results

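The immunoglobulin heavy chain locus of the mouse was read from copy number arrays of tumour DNA. Its members were all non-control probes placed on mouse build mm9 at chr12:113500000-118000000, which came to 480 probes of 234018 with a position, and 269 of the 480 lay in the locus itself and the rest in its flanks. The members were chosen by position and not by their values. Each of 8 arrays carried 1 DNA sample in the Cy5 channel against DNA of a wild-type Balb/c mouse in the Cy3 channel, and no dye swap was labelled. All 8 samples came from Balb/c mice that carried SEC31A-JAK2, a fusion gene of the tyrosine kinase JAK2, and the labels give bone marrow transplantation as their origin. The 4 secondary T-lymphoblastic lymphomas (T-LBL) were M12.49 (pancreas), M12.50 (lymph node of the neck), M12.52 (pancreas) and M12.53 (pancreas), all labelled as derived from mouse 12. The 3 primary T-LBL were M7 (spleen), M9 (spleen) and M12 (lymph node of the neck), and the 1 primary myeloid hyperplasia was M10 from bone marrow. Neither the age of the mice nor the share of tumour cells in a sample is given in the labels.

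The heavy chain locus holds the segments from which B cells assemble the variable part of an antibody. A D segment is first joined to a J segment, a V segment is then joined to the DJ unit, and the recombinase deletes the DNA between joined segments. D to J joining at this locus is also known from developing T cells, whereas V to DJ joining is largely a B cell event. The T-LBL studied here are lymphomas of immature T cells. In the RefSeq gene order of mouse assembly GRCm38.p6 the constant genes come first, running from Igha, the IgA constant gene, to Ighd and Ighm, the IgD and IgM constant genes. They are followed by the 4 J segments, by 10 D segments and 10 more D segments listed as pseudogenes, and then by 120 V segments and 63 listed as V pseudogenes. No probe was given a gene name from its position, because the gene table and the arrays are on different assemblies.

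A log2 ratio below 0 means that a probe gave less signal with the sample DNA than with the Balb/c DNA of that array. The interval was divided by position into a flank on the constant side (112 probes), the constant genes (20 probes), the D and J segments (7 probes), the V segments in 3 equal stretches of 840 kb (97, 79 and 66 probes from nearest to farthest from D), and a flank on the V side (99 probes). Probes lay a median of 7.57 kb apart. Group values rest on 4, 3 and 1 arrays, which limits their precision, and an error given for a single array is the standard error (SE) over its probes. The SD of the difference between neighbouring probes was 0.33 to 0.42 on 6 arrays, 0.63 on M12.52 and 0.76 on M7. On M7 the reference signal was well above background at 53.8% of spots, and on each of the other 7 it was so at 98.4% or more.

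The D and J segments were the class with the lowest mean log2 ratio on M12.49, M12.50, M12.52, M12.53, M9, M12 and M10, and M7 was the exception. On M12 that mean differed from 0 by less than its SE. The D and J mean of the secondary T-LBL was −1.75 ± 0.47 (M12.49), −1.46 ± 0.48 (M12.50), −1.27 ± 0.40 (M12.52) and −0.32 ± 0.20 (M12.53), with the SE over 7 probes. In the primary T-LBL it was 0.30 ± 0.08 on M7 (6 probes), −0.88 ± 0.18 on M9 and −0.04 ± 0.16 on M12, and on the myeloid array M10 it was −0.27 ± 0.07. The secondary T-LBL averaged −1.20 ± 0.62 (SD, n = 4) and the primary T-LBL −0.21 ± 0.61 (SD, n = 3), a difference of −0.99. The 2 groups overlapped, since M9 lay below M12.53. Without M9 the primary mean was 0.13, and without M7 it was −0.46. With another background correction (normexp) the group means were −0.43 and −0.03, and the order of the arrays changed. The D and J means were then −0.26 (M12.49), −0.79 (M12.50), −0.49 (M12.52) and −0.19 (M12.53) in the secondary T-LBL. They were 0.27, −0.25 and −0.10 in the primary T-LBL M7, M9 and M12, and −0.24 on M10, so that M12.49 and M9 no longer lay apart from M10 in value. Normexp also narrowed the ratios of M12.49 and M9 outside D and J. In the constant-side flank the ratios of M12.49 then lay between −0.09 and 0.06, against −0.92 and 0.75 in the main ratios. The SE over probes there went from 0.026 to 0.0029 on M12.49, from 0.030 to 0.016 on M9 and from 0.027 to 0.023 on M10. Over the 3 D and J probes whose reference was well above background on all arrays, the group means of the main ratios were −0.69 and −0.09.

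**Figure D1:**
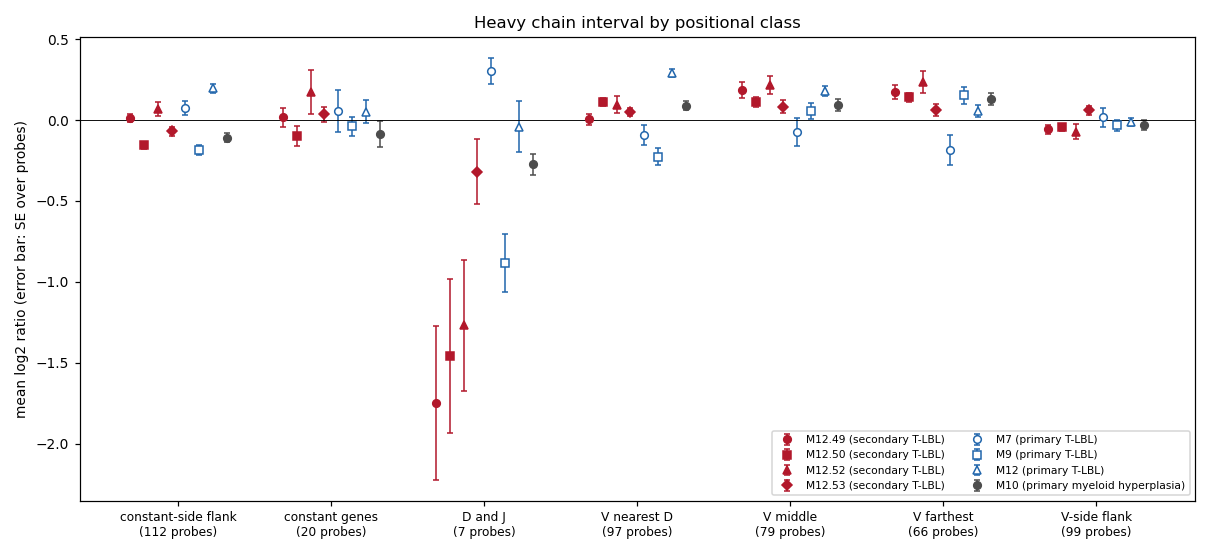
Mean log2 ratio (y axis, with the SE over probes) in the 7 positional classes (x axis) on each of the 8 arrays, coloured by group. The D and J class lay between −1.75 and −0.88 on M12.49, M12.50, M12.52 and M9, while all other class means of all arrays lay between −0.32 and 0.30.

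The constant genes on one side of D and J did not share the low values. In the order M12.49, M12.50, M12.52 and M12.53, which is kept from here on for the secondary T-LBL, their mean ratio was 0.02, −0.10, 0.17 and 0.03. It was 0.06, −0.04 and 0.05 on M7, M9 and M12, the order used for the primary T-LBL, and −0.08 on M10. These 20 probes span 162.2 kb of the constant genes, which encode the antibody classes. The last of them before the D and J class, at chr12:114656134-114656193, read −0.31, −0.38, −0.48 and −0.05 in the secondary T-LBL, −0.42, −0.27 and −0.05 in the primary T-LBL and −0.41 on M10.

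Within D and J, the low values began after the first probe on M12.49, M12.50, M12.52 and M9, and at the first probe on M12.53. That probe, at chr12:114664510-114664569 on the side of the constant genes, read 0.20, −0.11, 0.04 and −0.54 in the secondary T-LBL. In the primary T-LBL it read 0.58 on M7, −0.00 on M9 and 0.05 on M12, and on M10 it read −0.26. M12.53 was the lowest of the 8 arrays there, and M12.49, M12.52, M9 and M12 lay at 0 or above to 2 decimals. The next probe, 5.66 kb further at chr12:114670169-114670228, read −2.09, −1.34, −1.93 and −0.58 in the secondary T-LBL and had no value on M7, −0.82 on M9, −0.28 on M12 and −0.46 on M10. The ratio at the second probe minus that at the first was −2.29, −1.23 and −1.96 on M12.49, M12.50 and M12.52, −0.82 on M9 and −0.04 on M12.53.

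The lowest ratios of M12.49, M12.50, M12.52, M12.53, M9 and M12 lay at the third or the fourth probe. The third probe, at chr12:114675830-114675888, read −3.15, −2.79, −1.55 and −0.93 in the secondary T-LBL, 0.15, −1.49 and −0.40 in the primary T-LBL M7, M9 and M12, and −0.09 on M10. The fourth probe, at chr12:114683474-114683532, read −3.25, −3.47, −3.15 and −0.69 in the secondary T-LBL, 0.29, −1.21 and −0.66 in the primary T-LBL, and −0.36 on M10. At the third probe the sample signals of M12.49, M12.50, M12.52 and M9 were not well above background, so that their ratios there give no order among these 4 arrays. At the fourth probe M12.49, M12.50 and M12.52 lay below all other arrays, and the sample signal after centring was 10.5%, 9.01%, 11.3% and 62.1% of the reference signal in the secondary T-LBL.

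A ratio against a sample signal near background gives only a bound. Of the 7 D and J probes the sample signal was well above background at 4, 6, 4 and 7 in the secondary T-LBL, at 5 on M9, 7 on M12 and 7 on M10, and at all 6 measured on M7. With each dim signal raised to the smallest value that still counted as well above background in its channel, the reference exceeded the sample at the fourth probe at least 7.89-fold on M12.49 and at least 5.27-fold on M12.52. On M12.50 both channels were well above background at that probe and the reference was 11.1-fold higher, against 1.61-fold on M12.53 and 2.31-fold on M9, where both were also well above background. At the third probe the bounds were lower, at least 1.78-fold on M12.49, 4.83-fold on M12.50, 1.41-fold on M12.52 and 1.06-fold on M9, while M12.53 had a measured 1.91-fold. At the second probe, dim on M12.49 and M12.52, the bounds on these arrays were at least 4.25-fold and at least 3.80-fold. The D and J means computed with such raised signals were −1.38, −1.39, −1.01 and −0.32 in the secondary T-LBL, 0.07, −0.63 and −0.04 in the primary T-LBL and −0.27 on M10.

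From the fifth probe on, the values of M12.49, M12.50 and M12.52 lay closer to 0 than at the fourth, while M9 fell again at the sixth. The fifth probe, at chr12:114694549, read −1.93, −1.16, −1.16 and 0.58 in the secondary T-LBL, 0.36, −0.82 and 0.39 in the primary T-LBL and −0.39 on M10. The sixth, at chr12:114713478, read −1.31, −1.18, −0.80 and −0.22 in the secondary T-LBL, 0.41, −1.12 and 0.21 in the primary T-LBL and −0.38 on M10. The seventh, at chr12:114718970 and nearest to the V segments, read −0.71, −0.16, −0.33 and 0.15 in the secondary T-LBL, 0.04, −0.72 and 0.41 in the primary T-LBL and 0.01 on M10. M12.49 and M9 were thus still low at the last probe, whereas M12.50 and M12.52 lay above −0.5 there. The reference signal of M12.53 at the fifth probe deviated by −0.83 on the log2 scale from the median of the other arrays, beside its ratio of 0.58.

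**Figure D2:**
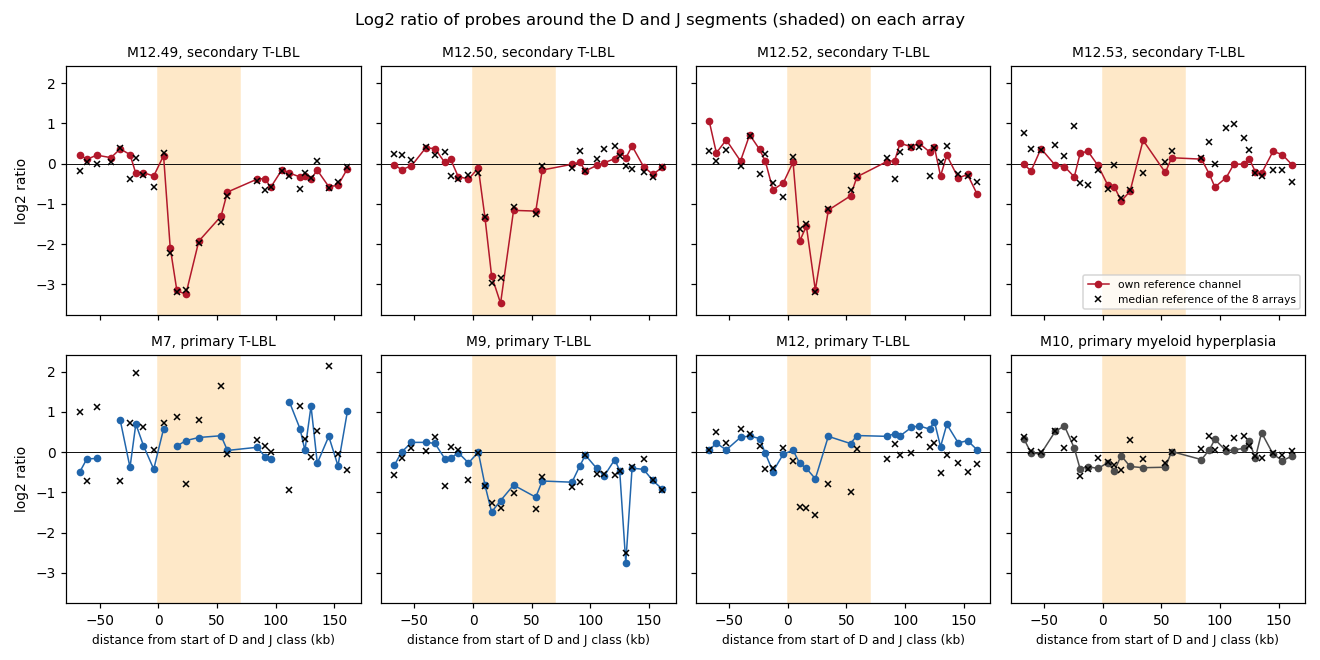
Log2 ratio of single probes (y axis) against the distance in kb from the start of the D and J class (x axis, class shaded), with 1 panel per array. Circles are ratios to the array's own reference channel and crosses are ratios to the median reference of the 8 arrays. On M12.49, M12.50 and M12.52 the ratio was near 0 at the first D and J probe and reached −3.25, −3.47 and −3.15 at the fourth, while on M12 the crosses lay below the circles.

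The extent of the low stretch differed between arrays. A run was counted where at least 3 neighbouring probes all had a ratio of −0.5 or less. The run of M12.49 covered 6 probes and 48.9 kb up to position 114719029 with a mean of −2.07, and those of M12.50 and M12.52 covered 5 probes and 43.4 kb up to position 114713534, with means of −1.99 and −1.72. The run of M9 covered 7 probes and 74.2 kb up to position 114744391, with a mean of −0.99, and was the one that crossed into the V segments. The runs of these 4 arrays all began at the same probe, at position 114670169. The run of M12.53 began 1 probe earlier and ended sooner, covering the first 4 probes and 19.0 kb from position 114664510 to 114683532, with a mean of −0.68. M7, M12 and M10 had no such run in D and J. Probes in runs of lower ratio made up 0.152%, 0.147%, 1.02% and 0.121% of autosomal probes on M12.49, M12.50, M12.52 and M12.53, 0.474%, 0.0456% and 0.107% on M7, M9 and M12, and 0.122% on M10.

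Counted probe by probe, a ratio of −0.5 or less was found at 6, 5, 5 and 4 of 7 D and J probes in the secondary T-LBL. Among the primary T-LBL it was found at 0 of 6 probes on M7, 6 of 7 on M9 and 1 of 7 on M12, and on M10 at 0 of 7. The same limit was passed by 4.2%, 2.79%, 14.9% and 3.02% of the autosomal probes on the 4 secondary arrays, by 10.5%, 4.59% and 3.24% on M7, M9 and M12, and by 5.53% on M10. On M12.49, M12.50, M12.52, M12.53 and M9 at least 4 of 7 D and J probes thus passed a limit that at most 14.9% of that array's autosomal probes passed. A ratio of −1 or less was found at 5, 5, 4 and 0 D and J probes of the secondary T-LBL, at 0, 3 and 0 of the primary T-LBL M7, M9 and M12, and at 0 on M10. That limit was passed by 0.257%, 0.11%, 2.2% and 0.122% of autosomal probes on the secondary arrays, by 1.8%, 0.876% and 0.0863% on M7, M9 and M12, and by 0.161% on M10.

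The reference dye of M12 stood apart from the other reference dyes in D and J. Relative to the autosomal median of each dye, the sample DNA of M12 had a mean level of −0.90 over the D and J probes, on the log2 scale, and its reference DNA had a mean level of −0.88. The reference levels of the other 7 arrays lay between −0.04 and 0.36. The M12 reference deviated by −0.94 from the median of the other arrays in D and J, while the references of the other 7 deviated by −0.07 to 0.28. Over the V segments it deviated by −0.45, −0.37 and −0.38 from the nearest to the farthest stretch, against −0.01 at the constant genes and −0.03 in each flank.

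Set against the median of the 8 reference signals at each probe, the D and J mean of M12 was −0.89, close to the −0.94 of M9. The other arrays then read −1.79, −1.40, −1.18 and −0.29 on M12.49, M12.50, M12.52 and M12.53, 0.53 on M7 and −0.16 on M10. Along D and J, M12 then read −0.22, −1.37, −1.39, −1.57, −0.80, −0.98 and 0.08 from the first to the seventh probe. It was thus near 0 at both ends and low in between, with 5 of 7 probes at −0.5 or less, against 6, 5, 5 and 3 on the secondary arrays, 1 of 6 on M7, 6 on M9 and 0 on M10. With this reference the secondary T-LBL averaged −1.17 ± 0.63 (SD, n = 4) and the primary T-LBL −0.43 ± 0.84 (SD, n = 3). Whether the sample or the reference of M12 departs from the others cannot be told apart by the ratio of that array alone, and why its reference level is low was not tested.

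**Figure D3:**
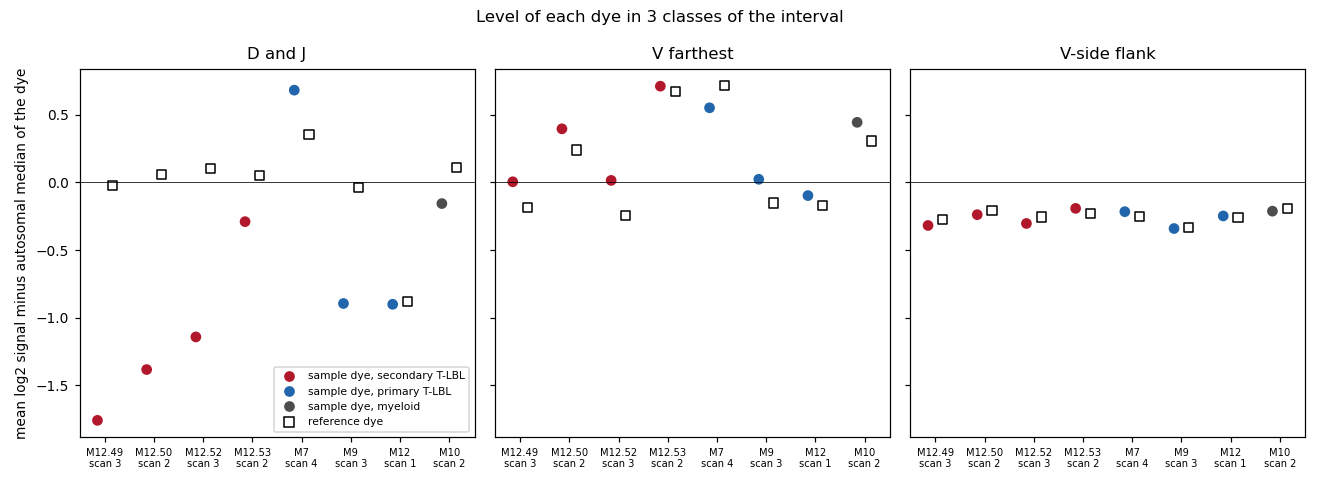
Mean log2 signal of the sample dye (filled circles, coloured by group) and of the reference dye (open squares), each relative to the autosomal median of that dye (y axis), on the 8 arrays (x axis, with the number of the scan date) in 3 classes. In D and J the reference of M12 lay at −0.88 and the other references between −0.04 and 0.36, and in the V segments farthest from D both dyes moved together from array to array.

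The groups were compared with limma at each probe, fitted over all 8 arrays with 3 groups and adjusted over all autosomal probes by the Benjamini-Hochberg method. For the secondary T-LBL against the normal reference, 0 of 480 interval probes passed an adjusted p of 0.05, while 0.0176% of autosomal probes did. At an unadjusted p under 0.05 there were 42 interval probes, 8.75% of the interval, beside 4.31% of autosomal probes. Of these 42, 17 were lower and 25 higher in the secondary T-LBL, whereas 6034 of the 9550 autosomal ones were lower. The largest mean was that of the fourth D and J probe at position 114683474, with −2.64 ± 0.43 (SE, limma, adjusted p = 0.263), and all 4 secondary arrays were below 0 there. The second and the third probe had −1.48 ± 0.24 (SE, limma, adjusted p = 0.365) and −2.11 ± 0.37 (SE, limma, adjusted p = 0.389). These p-values count the 4 secondary tumours as independent although they share an origin in mouse 12.

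For the primary T-LBL against the normal reference, limma called 0 interval probes and 0% of autosomal probes, and 32 interval probes had an unadjusted p under 0.05 (6.67% of the interval, beside 3.91% of autosomal probes). For the secondary against the primary T-LBL it called 0 and 0% as well, with 11 interval probes at an unadjusted p under 0.05, beside 0.887% of autosomal probes. This comparison also counts M12 as independent of the secondary T-LBL, although all of them trace to mouse 12. The difference at the fourth D and J probe was −2.11 ± 0.65 (SE, limma, adjusted p = 1). For the primary T-LBL against M10, whose single array is taken to have the spread of the other groups, limma called 0 and 0%, with 0 interval probes at an unadjusted p under 0.05, beside 0.48% of autosomal probes. With the scan date or the slide as a block, limma called 2 and 1 interval probes for the secondary against the primary T-LBL, among 305 and 133 autosomal ones, and with the slide 4 for the primary T-LBL against M10, among 553. None of these was a D and J probe.

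Means over windows of 10 neighbouring probes were fitted in the same way, and limma called 0 of 49 interval windows in each of the 4 comparisons. Over the autosomes it called 0.104% of windows for the secondary T-LBL against the reference and 0% in the other 3 comparisons. At an unadjusted p under 0.05 there were 9 (2 of them lower), 1, 2 and 0 interval windows, beside 3.94%, 2.86%, 1.12% and 0.479% of autosomal windows, for the secondary T-LBL against the reference, the primary T-LBL against the reference, the secondary against the primary T-LBL and the primary T-LBL against M10. The D and J probes fell into 2 windows that also hold probes of the neighbouring classes, and these had means of −0.33 ± 0.07 and −0.51 ± 0.17 (SE, limma, adjusted p = 0.879 for both) in the secondary T-LBL.

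The file headers give 4 scan dates and 5 slide barcodes, and arrays that share one were compared with each other. On the third scan date, M12.49 and M12.52 had a D and J mean of −1.51 and M9 one of −0.88, a difference of −0.63. On a slide barcode shared by M12.50 and M9 the values were −1.46 and −0.88, a difference of −0.58. On the second scan date, M12.50 and M12.53 averaged −0.89 and M10 read −0.27, a difference of −0.62. On the barcode shared by M7 and M10 the values were 0.30 and −0.27, a difference of 0.58. The mean of the secondary T-LBL was thus lower than M9 or M10 in each of these pairings that held them. On the second scan date this rested on M12.50, since M12.53 alone read −0.32, close to M10. With normexp M12.53 lay above M10, at −0.19 against −0.24. The differences were smaller than the −0.99 between the group means. M9 was the lowest of the primary T-LBL, so the size of the differences from it says nothing about the batch.

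In the V segments nearest D, M9 read lowest next to the D and J class. In steps of 100 kb away from the D and J class, M9 read −0.67 ± 0.20, −0.37 ± 0.11, −0.09 ± 0.19, −0.27 ± 0.04, −0.27 ± 0.06, −0.16 ± 0.22, −0.06 ± 0.14 and 0.02 ± 0.12 (SE over probes). It held a second run of 3 low probes at chr12:114813177-114833272, with a mean of −0.74. M12.49 was low in the first step, with −0.35 ± 0.05, and read −0.06 in the next, while M12.50, M12.52 and M12.53 read 0.03, 0.06 and −0.08 in the first step. M7 read 0.33 ± 0.18 in the first step and M10 read 0.05. The difference of M9 from the other arrays was not tested, since it is a single array.

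M12 read above 0 throughout the same stretch, with 0.44, 0.34, 0.34, 0.32, 0.25, 0.15, 0.25 and 0.24 in the 8 steps. Its reference deviated by −0.70 to −0.33 in these steps from the median of the other arrays. It held a run of 4 probes at 0.5 or above at chr12:114765397-114785057, with a mean of 0.65, where its reference deviated by −0.59. Against the median reference that run read 0.19, and the first 3 steps read −0.08, 0.09 and −0.20. M9 against the median reference read −0.71, −1.05 and −0.43 in the first 3 steps.

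**Figure D4:**
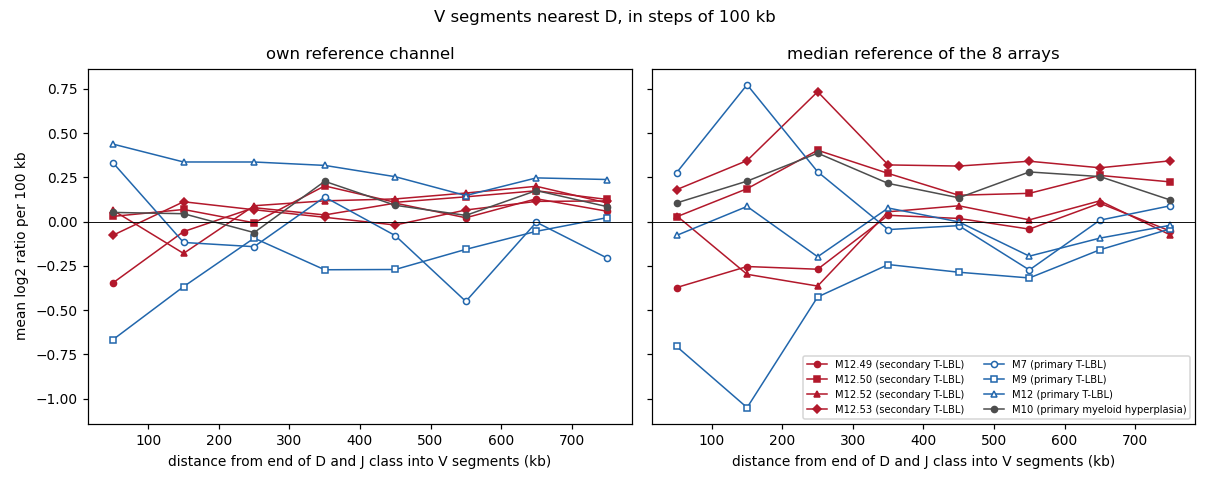
Mean log2 ratio per 100 kb (y axis) against the distance from the end of the D and J class into the V segments (x axis, kb), with 1 line per array, for ratios to the array's own reference (left) and to the median reference of the 8 arrays (right). M9 started at −0.67 in the left panel and reached 0.02 in the last step, and M12 lay between 0.15 and 0.44 there.

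Over the whole stretches of V segments the class means lay between −0.23 and 0.29. The stretch nearest D read 0.00, 0.11, 0.10 and 0.05 in the secondary T-LBL, −0.09, −0.23 and 0.29 in the primary T-LBL M7, M9 and M12, and 0.09 on M10. The middle stretch read 0.19, 0.11, 0.22 and 0.08 in the secondary T-LBL, −0.07, 0.06 and 0.18 in the primary T-LBL and 0.09 on M10. The stretch farthest from D read 0.17, 0.14, 0.23 and 0.06 in the secondary T-LBL, −0.19, 0.15 and 0.05 in the primary T-LBL and 0.13 on M10. The secondary T-LBL averaged 0.15 ± 0.07 in that last stretch and the primary T-LBL 0.01 ± 0.17 (SD, n = 4 and n = 3), so that the groups overlapped. A ratio of 0.5 or above was found there at 12.1%, 7.58%, 22.7% and 4.55% of probes in the secondary T-LBL. The share was 9.38%, 13.6% and 7.58% in the primary T-LBL and 6.06% on M10. Over the autosomes it was 1.44%, 1.47%, 10.7% and 3.83%, then 18.1%, 1.45% and 2.78%, and 3.15% on M10, so that only M7 lay below its autosomal share.

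The runs of higher ratio found on more than 1 array lay where the signal was dim. In the middle stretch of V segments, the probes at chr12:116271371-116301825 read 0.72 on M12.49, 1.01 on M12.52 and 0.72 on M9, beside 0.04 on M12.50 and −0.32 on M12.53, −1.21 on M7 and 0.17 on M12, and −0.18 on M10. Their reference signal was well above background at 0 to 2 of 5 probes on each array. The 3 probes at chr12:116325044-116345514 read 1.45 on M12.49 and 1.26 on M9 and formed a run of higher ratio on M12.52 as well, and they read between −0.67 and 0.37 on the other 5 arrays, and their reference was well above background at 0 of 3 probes on every array. M12.49, M12.52 and M9 shared the third scan date, so that scan and ratio cannot be told apart at these probes. M12.52, one of the 2 noisier arrays, held 2 more runs of higher ratio, at chr12:115553037-115569887 with a mean of 0.71, where both dyes were well above background at 3 of 3 probes, and at chr12:116506075-116540412 with a mean of 0.91, where they were so at 3 of 5. Its reference deviated there by −0.43 and −1.19 from the median of the other arrays, and against the median reference the runs read 0.37 and −0.04. At the probes of the latter run M12.49 and M9 read 0.64 and 0.58, and the other 5 arrays between −0.74 and 0.38. Probes in runs of higher ratio made up 0.0357%, 0.0126%, 0.484% and 0.0651% of autosomal probes on the 4 secondary arrays, 1.64%, 0.0443% and 0.0465% on M7, M9 and M12, and 0.0276% on M10.

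M7 held 2 runs of lower ratio in the V segments and none in D and J. The first, at chr12:116271371-116296896, had a mean of −1.87 over 4 probes, where the reference of M7 was 3.47 above the median of the other arrays. The second, at chr12:116934514-116954023, covered 3 probes, where its reference was 0.83 above that median. Against the median reference they read 1.34 and −0.28, so that the first run changed sign with the reference used.

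In the stretch of V segments farthest from D, both dyes moved together from scan date to scan date. The sample level averaged 0.52 on the 3 arrays of the second scan date (M12.50, M12.53 and M10) and 0.01 on the 3 arrays of the third (M12.49, M12.52 and M9), and the reference level averaged 0.41 and −0.19 on the same arrays. On M7 the sample level was 0.55 and the reference level 0.72, and on M12 they were −0.10 and −0.17. The reference level had an SD of 0.39 over the 8 arrays there and 0.04 in the adjoining V-side flank. The ratio, in which a shift common to both dyes cancels, had an SD of 0.13 over the arrays in that stretch.

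The flanks and the rest of chromosome 12 set the scale for these values. The constant-side flank read 0.01, −0.16, 0.07 and −0.07 in the secondary T-LBL, 0.07, −0.19 and 0.20 in the primary T-LBL and −0.11 on M10, and the V-side flank lay between −0.07 and 0.06 on the 8 arrays. The rest of chromosome 12 lay between −0.03 and 0.06. A separate loss of 102 probes that ends 5.37 Mb before D and J read −0.76, −0.93, −0.71 and −0.78 in the secondary T-LBL, and 0.07, −0.00 and −0.65 on M7, M9 and M12, and −0.10 on M10. At that loss M12.53 resembled the other secondary tumours and M12 in value, whereas at D and J it lay apart from M12.49, M12.50 and M12.52.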

How the data were processed

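Genomic DNA of 8 samples was measured on Agilent 244K two-colour arrays. The deposited array files hold processed signal intensity for both dyes, and the deposited series table holds the authors' log10 ratios of the same arrays. Per the file headers, Feature Extraction 10.5.1.1 subtracted the background and applied a linear dye normalisation to the intensity values, while the submitters' processing notes name version 9.1.1. Positions are on mm9 in 7 files, and M12, whose file is on mm8, took them by probe name.

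The log2 ratio of processed Cy5 over Cy3 signal was taken per spot leaving out controls and any spot flagged as an outlier, averaged per probe, and centred on the autosomal median of each array. Of the 480 interval probes, 461 had a value on all arrays. The limma fit (version 3.58.1 in R 4.3.3, lmFit and eBayes) ran over all 234018 probes with a position and over their windows. The adjustment ran over 221455 autosomal probes (221378 for the primary T-LBL against M10) and 22135 autosomal windows, with an adjusted p threshold of 0.05. In simulated data limma recovered 97% of probes shifted by −1 for the secondary T-LBL against the reference and 43% for the secondary against the primary T-LBL, and 100% of those shifted by −2 in both, out of 100 shifted probes each. The simulated noise was normal and independent between arrays, and each shift was the same on every secondary array. The measured D and J ratios differed between these arrays, from −3.47 on M12.50 to −0.69 on M12.53 at the fourth probe. The simulated shares therefore do not give the power of limma at D and J. Tables were made with Python 3.11.15, numpy 2.4.6 and pandas 2.3.3.

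The 4 secondary tumours trace to 1 mouse, and the labels do not say whether they came from separate animals, so p-values measure only the spread between these samples. By the naming rule every D and J probe is given, and elsewhere up to 5 runs per array and limma calls with the largest difference. The members, classes and lists were chosen with earlier results of these data known. Alternatives were other background corrections, references, centrings and filters, batches as blocks, and leaving out arrays. Sequences of the probes were not used here.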

Additional observations from a re-analysis of the deposited data

Results flagged for a closer look

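At the fourth D and J probe, at position 114683474, M12.53 had a log2 ratio of −0.69 while M12.49, M12.50 and M12.52 had −3.25, −3.47 and −3.15, so that it stood apart from the other secondary T-LBL by more than a gap of this kind usually allows among 4 arrays. The sample signals of M12.49 and M12.52 were not well above background there, so that their ratios are bounds. This was 1 of 14 groups of 4 arrays examined, and about 1 in 20 such groups stands out by chance.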

How the results depend on the processing

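The main D and J means were those of the secondary T-LBL (−1.20), the primary T-LBL (−0.21) and M10 (−0.27). Background correction by normexp, run on median signals because the files have no mean signal, gave −0.43 for the secondary T-LBL and −0.26 on M12.49. It also narrowed the ratios of M12.49 in the constant-side flank. M10 read −0.16 with the median reference, −0.20 centred on the flanks and −0.36 as a median over probes. With only the 3 D and J probes whose reference was well above background on all arrays, M12.53 read 0.17, M12.50 −0.83, M12.52 −0.76 and M12 0.34. Leaving out single arrays gave −1.49 to −1.02 for the secondary T-LBL, −0.46 to 0.13 for the primary T-LBL and −1.33 to −0.74 for the difference. That difference, −0.99 in the main ratios, was −0.41 with normexp and −0.59 over those 3 D and J probes. Limma with array weights, whose estimation did not converge, called 436 of 480 interval probes and 42 of 49 interval windows for the secondary T-LBL against the reference. Over the autosomes it called 204799 of 221455 probes and 18741 of 22135 windows. For the secondary against the primary T-LBL it called 2 interval probes with the scan as a block and 1 with the slide, and for the primary T-LBL against M10 it called 4 with the slide. At a ratio of −1 in place of −0.5 the low D and J probes numbered 0 on M12.53, 3 on M9 and 0 on M12, beside 0.122%, 0.876% and 0.0863% of autosomal probes. With at least 5 probes per run, M12.49, M9 and M12 had 0 runs of higher ratio and M12.52 had 2, and M12.53 and M7 had 0 runs of lower ratio and M9 had 1. The cause of these changes was not tested. In the other 181 comparisons of a main result with an alternative, values moved by less than their spread and counts stayed close, and among them the primary T-LBL mean changed sign without M9. The D and J means of single arrays and the group means of the other classes were compared in the same way. Of these comparisons 172 moved by less than their spread, 43 moved by more and 1, that of M12.53, was reversed. Not all of the 43 are given here. The labels tie M12 and the 4 secondary T-LBL to mouse 12, but 1 primary array against 4 secondary ones forms no pairs, so no paired analysis was run. With the mouse of origin as a random block, fitted to windows only, limma called 0 interval windows in the 4 comparisons. Leaving out the second array on each slide barcode used again (M12.52, M7 and M9) was chosen after seeing the data, and gave −1.18 for the secondary T-LBL and −0.04 for the primary T-LBL, which was then M12 alone. Dim sample signals limit the size of the D and J values to bounds, and on M7 the reference was dim as well at some D and J probes.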
